A study of Mus musculus with 384 samples.

Results

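Tumour-infiltrating CD4 T cells were split by whether Fos was detected in them, and all other genes were compared between the 2 states. Cells came from 2 plates of CD4 cells, and a cell was kept when at least 1000 genes reached 1 FPKM (fragments scaled to transcript length and library size, the unit of the deposited values). A kept cell with Fos at 1 FPKM or more was counted as Fos-positive and any other kept cell as Fos-negative. The split holds 92 Fos-positive and 60 Fos-negative cells, out of 94 single-cell wells on each of these plates and on each of the 4 plates of the series. On the wild-type plate, 30 of 74 kept cells were Fos-positive, which is 40.5% (exact Clopper-Pearson 95% interval 29.3% to 52.6%), and 44 were Fos-negative. On the plate labelled Il27ra knockout, 62 of 78 kept cells were Fos-positive, which is 79.5% (68.8% to 87.8%), and 16 were Fos-negative. These intervals, and all others on shares of cells, cover counting error only.

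All mice were of the C57BL/6 strain and bore B16F10 melanoma, a transplantable mouse skin tumour line, and the cells were profiled in plates by Smart-seq2, which reads full-length transcripts without molecular identifiers. The CD4 plates carry the genotype labels wild type and IL27raKO, and 2 further plates of the same labels hold CD8 cells. The source names (WT4, KO4) were read as 1 source per genotype, so genotype, animal and plate cannot be told apart. The treatment label names only CD8+ cells, whereas the titles of these plates say CD4, and the plates were grouped by title. Which part of Il27ra was deleted is not stated in the labels, and age is not given. Cd4 was detected in 27 of 30 and 39 of 44 Fos-positive and Fos-negative cells of the wild-type plate, and in 58 of 62 and 13 of 16 cells of the other. A Cd3 chain was detected in 28, 44, 59 and 16 cells of the same 4 groups.

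Fos encodes a subunit of AP-1, a transcription factor made of paired Fos and Jun family proteins. In T cells, Fos belongs to the immediate early genes, which are transcribed within minutes of antigen receptor or stress signals without new protein synthesis and whose mRNAs decay fast. The response also includes other transcription factors such as Egr and Nr4a family members, and feedback genes that limit the signal, such as the mRNA decay factor Zfp36 and inhibitors of NF-kB. The same genes are also known to be induced when a tissue is dissociated into single cells.

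The regions upstream of Fos and of the 3 genes that passed the test below are shown because all 4 hold the same 5-base core, TGACG, of the cyclic AMP response element. Each is the 250 bases before a start site in RefSeq (GRCm38.p6), printed 5′ to 3′ on the gene's strand. Capitals mark matches on either strand to TGACG, to the full element TGACGTCA or to the NF-kB site. Fos lies at chr12:85473640-85473889 on the plus strand, Nr4a1 at chr15:101266596-101266845 on the plus strand and Ppp1r15a at chr7:45526269-45526518 on the minus strand. The Nfkbid stretch is chr7:30422156-30422405 on the plus strand, upstream of 1 of its 3 start sites in the table, and the other windows of Nfkbid held no match.
Fos: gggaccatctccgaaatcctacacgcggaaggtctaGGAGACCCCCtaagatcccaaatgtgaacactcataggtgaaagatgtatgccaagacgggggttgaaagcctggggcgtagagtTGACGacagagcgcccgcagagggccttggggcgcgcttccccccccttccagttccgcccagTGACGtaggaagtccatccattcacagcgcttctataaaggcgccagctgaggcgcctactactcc
Nr4a1: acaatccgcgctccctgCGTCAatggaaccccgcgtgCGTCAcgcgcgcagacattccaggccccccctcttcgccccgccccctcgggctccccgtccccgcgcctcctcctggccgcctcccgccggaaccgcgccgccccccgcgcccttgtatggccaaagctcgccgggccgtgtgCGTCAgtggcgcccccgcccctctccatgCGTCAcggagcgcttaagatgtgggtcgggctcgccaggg
Ppp1r15a: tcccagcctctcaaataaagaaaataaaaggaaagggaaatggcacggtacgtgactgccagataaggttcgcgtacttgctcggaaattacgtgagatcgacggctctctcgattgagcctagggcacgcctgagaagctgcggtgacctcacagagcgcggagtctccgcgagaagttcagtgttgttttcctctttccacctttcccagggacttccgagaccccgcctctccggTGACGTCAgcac
Nfkbid: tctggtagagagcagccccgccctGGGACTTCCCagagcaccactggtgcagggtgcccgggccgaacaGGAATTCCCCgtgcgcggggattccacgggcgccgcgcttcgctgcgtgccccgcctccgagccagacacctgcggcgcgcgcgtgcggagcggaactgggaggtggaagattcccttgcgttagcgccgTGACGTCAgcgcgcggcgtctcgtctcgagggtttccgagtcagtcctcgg

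The core stood 66 bases before the Fos start and 69 and 40 bases before the Nr4a1 start, with 1 further match upstream in Fos and 2 in Nr4a1. The full element stood 12 bases before the Ppp1r15a start and 51 bases before the Nfkbid start, where it also counts as overlapping cores on both strands. NF-kB site matches stood farther upstream, 1 in Fos and 2 in Nfkbid. Fos and 46 further early genes were looked up in the RefSeq table, and 37 of the 47 had an entry. Over these 37 genes, TGACG was found upstream of 20 (54.1%), against 19.8% of all 27025 genes with an entry. The full element TGACGTCA was found in 4 of 37 (10.8%), against 1.77% of all genes, and the AP-1 motif TGANTCA in 3 of 37 (8.11%), against 7.82%. The serum response element was found in 4 of 37 (10.8%), against 1.62%, and the NF-kB site in 7 of 37 (18.9%), against 8.23%. Both strands were searched, and a match describes letters and not a bound site.

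Fos (chr12:85473890-85477273, plus strand) chose the groups, and its values are a description. In the Fos-positive cells of the wild-type plate it ranged from 6.61 to 11349 FPKM with a median of 834. In those of the plate labelled knockout it ranged from 1.16 to 16604 FPKM with a median of 1686. Fos was therefore either high or near 0 in most cells, and few cells lay near the threshold. The lowest values inside it were 6.61 and 39.7 FPKM in the wild-type plate and 1.16, 2.71 and 7.88 FPKM in the other. Just outside it lay 2 wild-type cells at 0.87 and 0.83 FPKM, and the other 42 wild-type cells and all 16 cells of the plate labelled knockout were at 0. The population wells held Fos at 1650 FPKM (wild type) and 4032 FPKM (labelled knockout), and the no-cell wells held 0.

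Nr4a1, Ppp1r15a and Nfkbid were higher in Fos-positive than in Fos-negative CD4 cells, and no gene was lower, by the test over all genes. Nr4a1 encodes an orphan nuclear receptor induced by T cell receptor signals. Ppp1r15a, also known as Gadd34, encodes the phosphatase subunit that reverses the translation block of the stress response, and Nfkbid encodes IkB-NS, a nuclear regulator of NF-kB. They had the 3 widest positive differences and the 3 smallest p-values of all genes tested. For each gene, the mean of log2(FPKM + 1) over the Fos-negative cells of a plate was subtracted from that over the Fos-positive cells. Such a difference carries the share of cells with detection and is not a fold change of mean expression. It also understates changes of genes with low values.

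In the wild-type plate, Nr4a1 (chr15:101254269-101274795, plus strand) ranged from 0 to 3241 FPKM with a median of 303.9 in Fos-positive cells, and from 0 to 2175 with a median of 0 in Fos-negative cells. On the plate labelled knockout, Nr4a1 ranged from 0 to 9888 with a median of 607 in Fos-positive cells, and from 0 to 757 with a median of 0 in Fos-negative cells. The states overlapped in both plates, and what separated them was mostly how many cells had the transcript. It was detected in 22 of 30 against 17 of 44 wild-type cells (73.3%, interval 54.1% to 87.7%, against 38.6%, 24.4% to 54.5%). The other plate had it in 49 of 62 against 5 of 16 cells (79%, 66.8% to 88.3%, against 31.2%, 11% to 58.7%). Among detecting cells the medians were 451 and 569 FPKM in the wild-type plate and 1182 and 332.3 FPKM in the other. The mean log2 difference was 2.79 in the wild-type plate and 5.48 in the plate labelled knockout, on average 4.13 ± 0.75 (SE; limma with Benjamini-Hochberg adjusted p = 0.00425).

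Ppp1r15a (chr7:45522916-45526268, minus strand) had a median of 212.8 FPKM (0 to 2964) in Fos-positive and 0 (0 to 3355) in Fos-negative wild-type cells. Its medians in the plate labelled knockout were 845 (0 to 6879) and 0 (0 to 1315). The highest single wild-type value was thus in a Fos-negative cell, while fewer Fos-negative cells had the transcript. Shares with detection were 63.3% against 31.8% in the wild-type plate and 85.5% against 43.8% in the other. The difference was 2.66 and 5.15 in the same order of plates, on average 3.90 ± 0.74 (SE; limma, Benjamini-Hochberg adjusted p = 0.00649).

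Nfkbid (chr7:30421732-30428746, plus strand) had a median of 117.9 FPKM (0 to 3592) in Fos-positive and 0 (0 to 1190) in Fos-negative wild-type cells. Its medians were 152.2 (0 to 2133) and 0 (0 to 486) in the plate labelled knockout. Detection was 56.7% against 31.8% and 59.7% against 31.2%, and detecting cells also held more of it. Their medians were 398 against 46 FPKM in the wild-type plate and 598 against 38.5 FPKM in the other. The 2 plates gave nearly the same difference, 3.05 and 3.26, on average 3.16 ± 0.67 (SE; limma, Benjamini-Hochberg adjusted p = 0.0351).

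**Figure D1:**
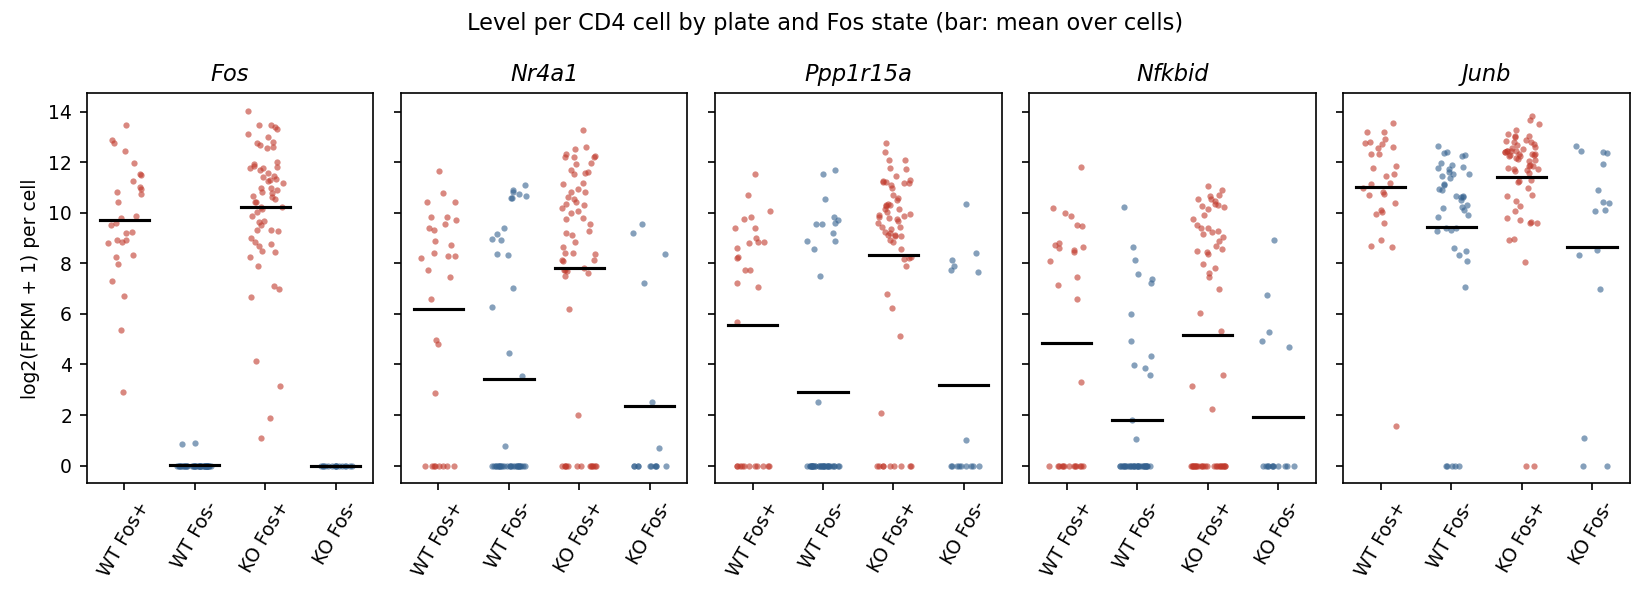
Each point is 1 CD4 cell, with log2(FPKM + 1) on the vertical axis, the 4 groups of plate and Fos state on the horizontal axis (WT wild type, KO labelled knockout) and a bar at the mean over cells. Fos sets the groups, whereas Nr4a1, Ppp1r15a, Nfkbid and Junb have cells at high values in all 4 groups and a larger share of cells at 0 among the Fos-negative ones.

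The test was limma on the 4 means of plate and Fos state, with plate as a block, over 7062 genes. It called 3 genes higher (0.0425% of those tested) and 0 lower (0.0%), and 390 were higher at an unadjusted p under 0.05 (5.52%), while 1.83% of genes were lower at that level. Cells of a plate are not replicates, and with 1 residual degree of freedom the p-values measure how far the 2 plates disagree, averaged across genes. Of 18 alternative analyses, 12 called 0 genes, and Nr4a1, Ppp1r15a and Nfkbid kept the positive sign in all 18. Over all genes the differences of the 2 plates had a Pearson r of 0.08 and a Spearman rho of 0.05, computed across genes, which are not independent.

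Among the AP-1 partners of Fos, none passed the adjusted threshold. Junb (chr8:84974484-84978718, minus strand), a Jun family partner, was detected in almost every cell: 100% against 88.6% in the wild-type plate and 96.8% against 87.5% in the other. Its median was 2562 against 1575 FPKM in the wild-type plate and 4529 against 1218 FPKM in the plate labelled knockout, with overlap between the states in both. The difference was 1.62 and 2.74, on average 2.18 ± 0.50 (SE; limma, Benjamini-Hochberg adjusted p = 0.0820). Jun, the classic dimer partner, was detected in 33.3% against 9.09% of wild-type cells and in 38.7% against 6.25% of cells labelled knockout, with a difference of 2.25 (limma adjusted p = 0.0988). Fosb, a paralogue of Fos, was found in 30% against 6.82% and in 66.1% against 25%, with a difference of 1.93 (limma adjusted p = 0.275). Values for Fosl2, Batf and Jund were 1.25, 0.63 and 0.11, and Batf, an AP-1 factor of effector and regulatory T cells, differed in sign between the plates (-0.71 and 1.98). Of the 12 AP-1 genes on the list, 7 were measured in at least 10% of the cells of a plate and 0 were called. At an unadjusted p under 0.05, 3 were higher (42.9%, against 5.52% of all genes), and the median difference was 1.25.

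Early transcription factors other than AP-1 had a median difference of 1.03 over 14 of 17 listed genes, beside 0.90 for housekeeping genes and 0.07 for all genes. Among them 1, Nr4a1, was called, against 0.0425% of all genes. Egr1, a zinc finger factor of the immediate early response, was detected in 43.3% against 15.9% of wild-type cells and 59.7% against 43.8% of cells labelled knockout. Its difference was 2.55 (limma adjusted p = 0.222), nearly the same in both plates (2.45 and 2.65). Ier2, an immediate early nuclear protein, had a difference of 0.60 in the wild-type plate and 3.67 in the other (limma adjusted p = 0.516). Nr4a3, a relative of Nr4a1, was detected in 26.7% against 11.4% and in 33.9% against 6.25%, and its difference was 1.11 (limma adjusted p = 0.530). Btg2, an antiproliferative gene, had a difference of 1.96 with the same adjusted p.

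Early feedback genes had a median difference of 0.74 over 25 of 27 listed genes, beside 0.90 for housekeeping genes and 0.07 for all genes. Of the 25, 19 (76%) were higher in both plates, against 76.9% of housekeeping genes and 31% of all genes. Among them 2, Ppp1r15a and Nfkbid, were called, against 0.0425% of all genes. Zfp36, which speeds decay of cytokine mRNAs, was detected in 86.7% against 56.8% of wild-type cells and in 83.9% against 43.8% of cells labelled knockout. Its median was 151.9 against 36.3 FPKM and 516 against 0 FPKM, and its difference was 3.08 ± 0.74 (SE; limma, Benjamini-Hochberg adjusted p = 0.0988). Gadd45b, a stress-responsive activator of p38 signalling, had a difference of 2.54, and Nfkbiz, a nuclear IkB protein like Nfkbid, of 2.47, each at a limma adjusted p of 0.275. The NF-kB inhibitors Nfkbia and Tnfaip3 both had a difference of 1.99 and the cytokine signalling inhibitor Socs3 of 1.98, without passing. Dusp1, a MAP kinase phosphatase usually counted among the immediate early genes, had a difference of 0.68 (limma adjusted p = 0.924) and was detected in 70% against 72.7% of wild-type cells. Cish, a STAT5 target, had a difference of 0.27, while its mean log2 level in the 2 states was 3.24 and 3.01 in the wild-type plate and 6.32 and 6.02 in the plate labelled knockout. Rgs16, a regulator of G protein signalling, had the only negative difference in both plates among the early genes (-0.82, unadjusted p = 0.0244).

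Over the 3 early lists together, 46 of 56 genes were measured and 36 of them (78.3%) were higher in Fos-positive cells of both plates, against 31% of all genes tested. That share was 55.6% (25 of 45) without cells with other-cell markers, Tyr and Cst3 not counted, against 20.5% of all genes. It was 58.3% (28 of 48) in cells with 2000 or more genes, against 29.2%. It was 33.3% (14 of 42) without cells with other-cell markers when Tyr and Cst3 counted, against 24.6%, with 6, 8, 16 and 3 cells left in the 4 groups. In that last setting 8 of 12 housekeeping genes (66.7%) were higher in both plates, a larger share than that of the early genes. Of the 46, 3 were called, 19 were higher at an unadjusted p under 0.05 (41.3%, against 5.52% of all genes) and 1 was lower. Their median difference was 0.95, beside 0.07 for all genes. The 13 housekeeping genes had a median difference of 0.90, and 10 of them (76.9%) were higher in both plates. Of these 13, 0 were called and 4 were higher at an unadjusted p under 0.05 (30.8%). Ppia, cyclophilin A, had a difference of 1.28. By median and by sign, in this setting, the early lists were close to the housekeeping genes, while the 4 widest differences of all genes tested were those of the early genes Nr4a1, Ppp1r15a, Nfkbid and Zfp36. With cells of the 2 states paired on the number of detected genes, the early median was 0.69 and the housekeeping median 0.40, and 60% and 76.9% of the genes were higher in both plates. Without cells with other-cell markers (Tyr and Cst3 not counted) the medians were 0.80 and 0.25 and the shares 55.6% and 30.8%. From arithmetic mean FPKM the medians were 0.99 and 0.36 and the shares 71.7% and 46.2%. In cells with 2000 or more genes the medians were 0.74 and 0.34 and the shares 58.3% and 46.2%. The 2 medians were closer after adjustment for detected genes (0.88 and 0.78), with shares of 76.1% and 69.2%. They were also closer without cells with myeloid markers (0.79 and 0.71), where the housekeeping share was the higher, at 63% and 76.9%. Without Foxp3-positive cells the medians were 1.45 and 1.48 and the shares 76.6% and 92.3%. How far the early lists stood above the housekeeping genes thus depended on the cells kept and on the averaging. The part of general transcript recovery in the early gene differences was not tested.

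**Figure D2:**
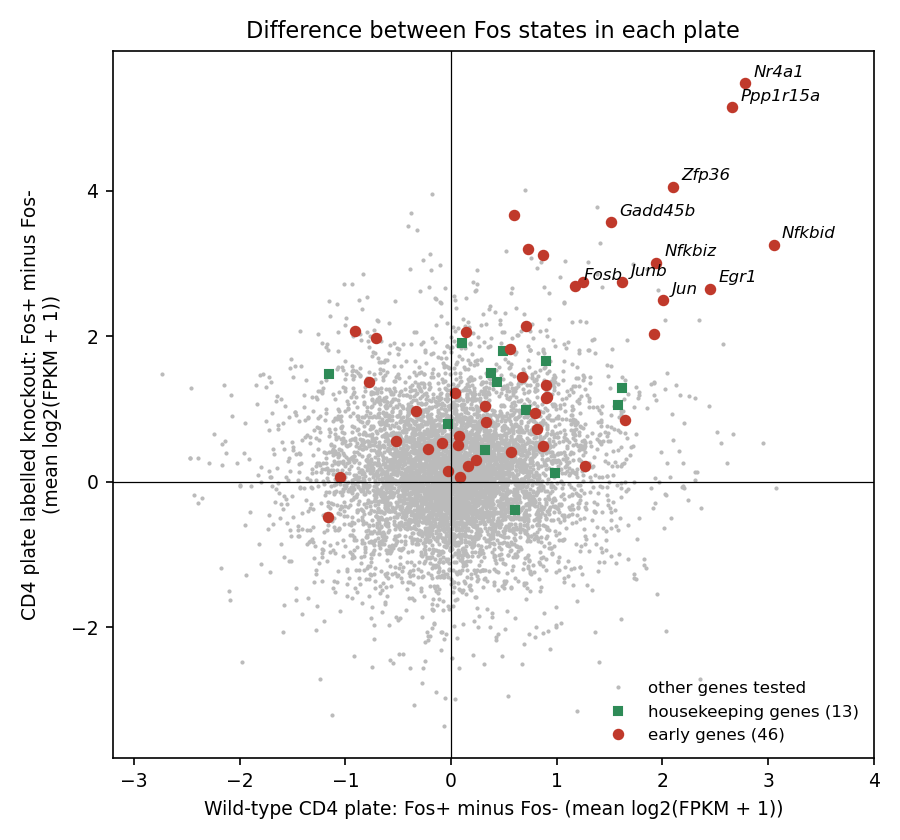
Each point is a gene, with the Fos-positive minus Fos-negative difference in mean log2(FPKM + 1) of the wild-type plate on the horizontal and of the plate labelled knockout on the vertical axis. The 46 early genes (red) reach the upper right corner, with Nr4a1 at 2.79 and 5.48. The 13 housekeeping genes (green) lie mostly in the same quadrant without reaching that corner. Medians in the wild-type plate and the other were 0.69 and 1.28 for early genes and 0.49 and 1.29 for housekeeping genes.

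**Figure D3:**
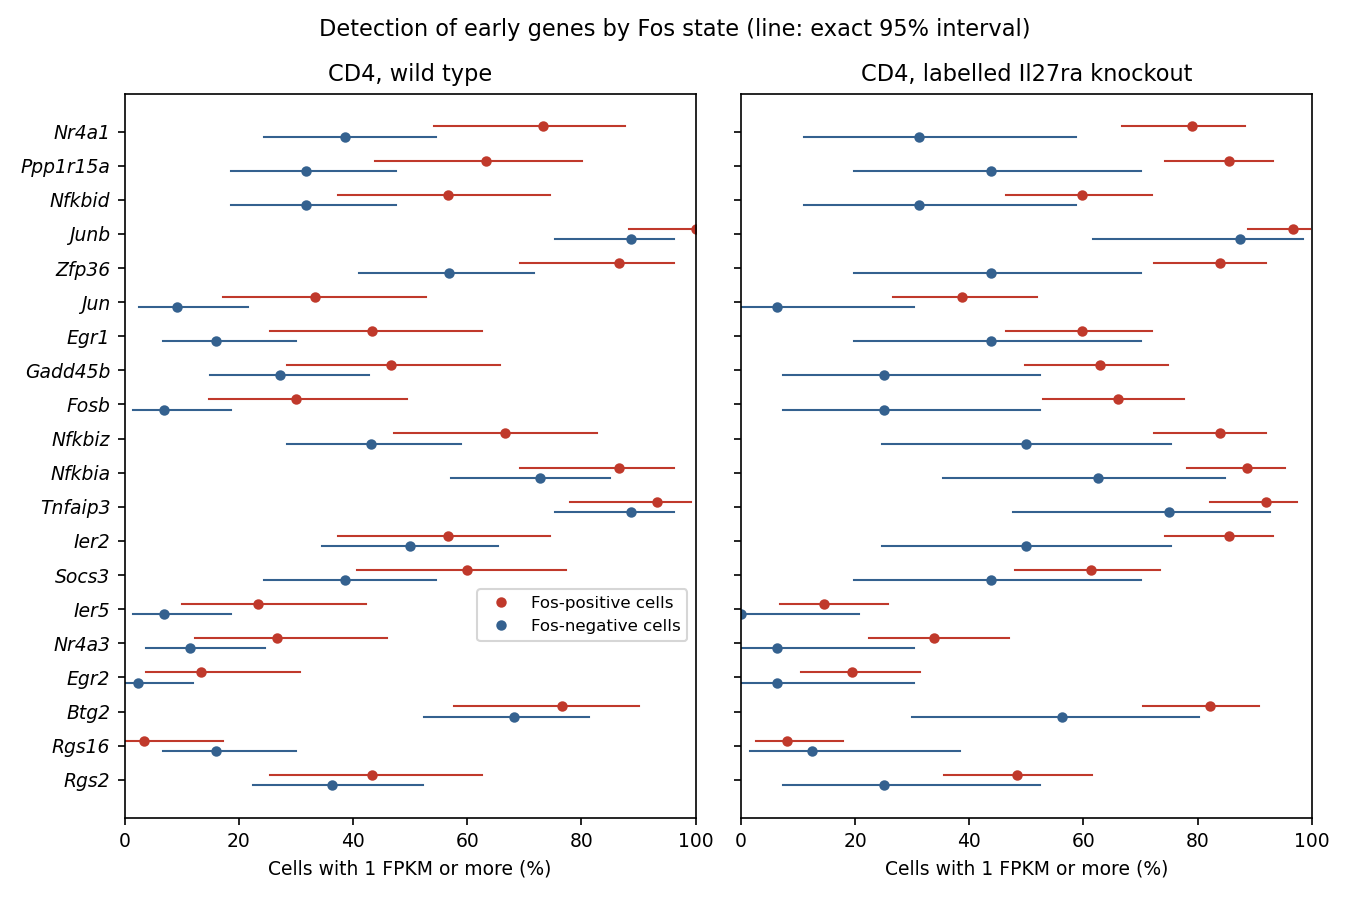
Share of cells with each transcript at 1 FPKM or more (horizontal axis, %, with exact 95% intervals) for the 20 early genes at an unadjusted p under 0.05, in Fos-positive (red) and Fos-negative (blue) cells of each plate. The genes shown were picked by their p-values, and Nr4a1 went from 38.6% to 73.3% in wild-type cells and from 31.2% to 79% in cells labelled knockout.

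T cell activation genes had no common direction: of 23 listed genes 18 were measured, 0 were called, and the median difference was -0.18. At an unadjusted p under 0.05, 3 of the 18 were higher (16.7%, against 5.52% of all genes) and 2 were lower (against 1.83%). Cd69 (chr6:129267325-129275436, minus strand), the early activation receptor that holds T cells in tissue, was detected in 50% against 40.9% of wild-type cells and 79% against 62.5% of cells labelled knockout. Its median was 0.97 against 0 FPKM in the wild-type plate and 837 against 126.3 FPKM in the other, with maxima of 3574, 3805, 9655 and 1057 FPKM in the 4 groups. The difference was 0.56 and 2.60, on average 1.58 ± 0.74 (SE; limma, Benjamini-Hochberg adjusted p = 0.658), so Cd69 was not shown to differ with Fos. Cd40lg, the helper ligand for B cells and dendritic cells, had a difference of 1.87 (limma adjusted p = 0.465). The costimulatory receptor Tnfrsf9, also called 4-1BB, had a difference of -1.98 (limma adjusted p = 0.516), with detection in 20% against 36.4% and in 38.7% against 62.5% of cells. Tnfrsf4, or OX40, had a difference of 0.04 in the wild-type plate and -2.98 in the other, and the calcium-regulated factor Nfatc1 of -1.51 and -1.09.

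Stress genes of other kinds were not called either. Of 15 heat shock and chaperone genes, 12 were measured, and the median difference was 0.62, beside 0.90 for the housekeeping genes. At an unadjusted p under 0.05, 4 of the 12 were higher (33.3%), against 30.8% of the housekeeping genes and 5.52% of all genes. The shares higher in both plates were 50%, 76.9% and 31% in the same order. The endoplasmic reticulum chaperone Hspa5 had a difference of 1.68, the mitochondrial co-chaperonin Hspe1 of 1.51 and the constitutive chaperone Hspa8 of 1.17. Hspa1a, the inducible heat shock protein, was detected in 1 of 30 and 0 of 44 wild-type cells and in 7 of 62 and 1 of 16 cells labelled knockout, so it was rare in every group. Its reads can be split with the near-identical Hspa1b. Unfolded protein and amino acid stress genes had a median of -0.06 over 7 of 11, with Atf4, the amino acid stress factor, at 0.73 and Ddit3, its target, at 0.40. Oxidative and metal stress genes had a median of 0.00 over 5 of 10, where Nfe2l2, the oxidative stress factor, stood at 1.46 (limma adjusted p = 0.275) and thioredoxin, Txn1, at -1.51 (adjusted p = 0.662). General NF-kB pathway genes had a median of 0.39 over 11 of 12 with 0 at an unadjusted p under 0.05.

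On the lower side, 0 genes passed the limma test. Among the widest negative differences of equal sign in both plates was -2.17 for Csk, the kinase that restrains Lck (limma adjusted p = 0.421). Others were Tnfrsf9, the calpain Capn2 at -1.85, Wdr61 at -1.83 and the adaptor Dok2 at -1.80. Csk was detected in 40% against 47.7% of wild-type cells and in 25.8% against 62.5% of cells labelled knockout.

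Lineage lists had median differences of -0.59 for regulatory T cell genes (14 of 15 measured), 0.41 for naive and memory genes (11 of 12), -0.43 for type 1 effector genes (10 of 12), -0.59 for T cell identity genes (10 of 13) and -0.30 for proliferation genes (16 of 18). None of their members was called. Il7r, the interleukin 7 receptor of naive and memory cells, had the highest difference of its list, 2.34 (limma adjusted p = 0.421). It was detected in 73.3% against 52.3% and in 75.8% against 37.5% of cells. Of the 11 naive and memory genes, 3 were higher in both plates, 0 were lower in both and 8 differed in sign. Their median difference was -0.06 in the wild-type plate and 1.38 in the other. Foxp3, the defining factor of regulatory T cells, was among the genes whose 2 plates went opposite ways. It was detected in 13 of 30 (43.3%) Fos-positive and 14 of 44 (31.8%) Fos-negative wild-type cells, against 26 of 62 (41.9%) and 11 of 16 (68.8%) in the plate labelled knockout. Read the other way, 48.1% of wild-type cells with Foxp3 were Fos-positive (28.7% to 68.1%) and 36.2% of those without (22.7% to 51.5%). The plate labelled knockout gave 70.3% (53% to 84.1%) and 87.8% (73.8% to 95.9%).

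Because Foxp3-positive cells were spread unevenly over the Fos states, early genes were also counted within each Foxp3 class. Among wild-type cells with Foxp3, the median number of early genes detected, of 56, was 21 in the 13 Fos-positive and 20.5 in the 14 Fos-negative cells. Without Foxp3 it was 17 in 17 and 13.5 in 30 cells. The plate labelled knockout gave 22 in 26 against 17 in 11 cells with Foxp3, and 24.5 in 36 against 6 in 5 cells without. Nr4a1 was detected in 11 of 13 against 9 of 14 wild-type cells with Foxp3 and in 11 of 17 against 8 of 30 without. In the plate labelled knockout it was detected in 19 of 26 against 4 of 11 cells with Foxp3 and in 30 of 36 against 1 of 5 without. Without Foxp3-positive cells the differences were 4.99 for Nr4a1, 5.28 for Ppp1r15a and 4.23 for Nfkbid, with 0 genes called by limma and 6.54% of genes at an unadjusted p under 0.05. The median of all genes was then 0.34 in place of 0.07, that of the early genes 1.45 and that of the housekeeping genes 1.48. Only 5 Fos-negative cells of the plate labelled knockout then remained.

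Fos-positive cells carried more early genes at once. In the wild-type plate a Fos-positive cell had a median of 20 of the 56 early genes (8 to 40) and a Fos-negative cell 15.5 (1 to 32). In the plate labelled knockout the medians were 23.5 (12 to 35) and 16.5 (3 to 27). The ranges overlapped widely in both plates. Total detection was alike in the wild-type plate, with medians of 2024.5 and 2047 genes per cell, and higher in Fos-positive cells of the plate labelled knockout, at 2106.5 and 1894. In cells paired on that number the medians were 20 and 15 (27 cells each) and 22.5 and 16.5 (16 cells each).

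**Figure D4:**
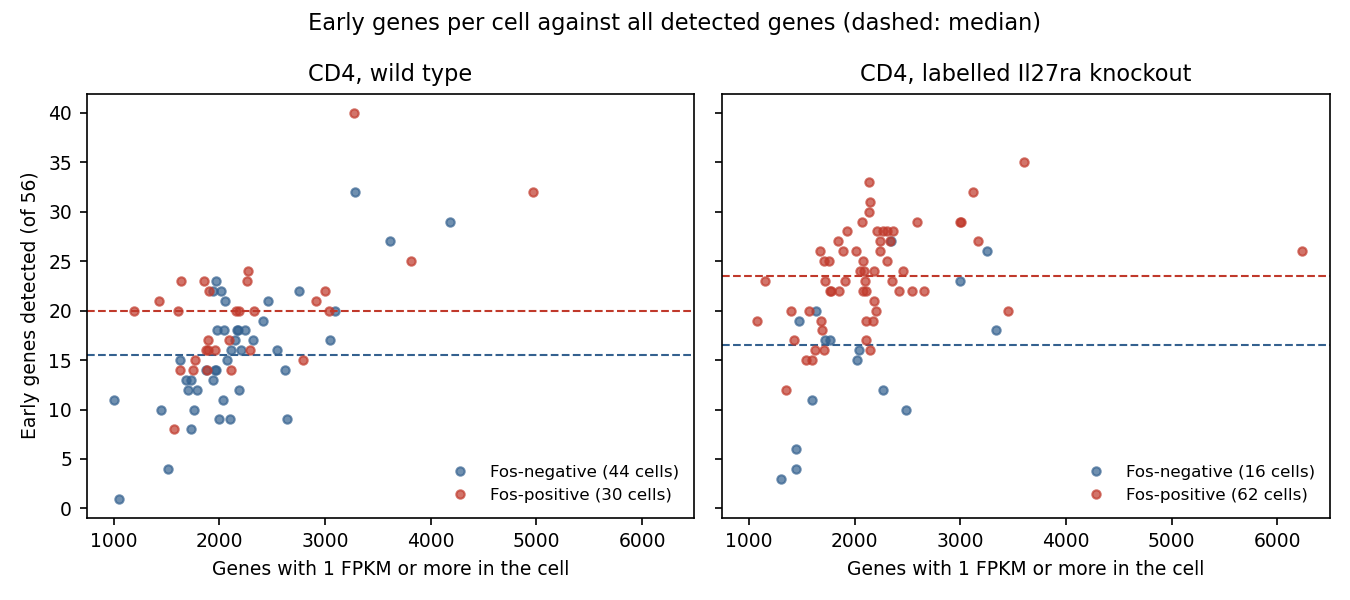
Each point is 1 cell, with all genes at 1 FPKM or more on the horizontal axis and early genes detected (of 56) on the vertical axis, and dashed lines mark the medians. The 2 states overlap along both axes, and the medians of early genes were 20 and 15.5 in the wild-type plate and 23.5 and 16.5 in the plate labelled knockout.

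Co-detection of the 3 called genes is a further description of the same cells, since the genes were picked for this difference. All 3 were present in 7 of 30 Fos-positive wild-type cells (23.3%, 9.93% to 42.3%) and in 4 of 44 Fos-negative ones (9.09%). On the other plate they were present in 29 of 62 (46.8%, 34% to 59.9%) and in 1 of 16 (6.25%). None of the 3 was detected in 6.67% against 38.6% of wild-type cells and in 4.84% against 43.8% of cells labelled knockout. Most Fos-positive cells therefore held at least 1 of the 3, and a majority of Fos-negative cells did as well.

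Within Fos-positive cells, the rank correlation of Fos with the early genes was low at the median, though most were above 0. Across the 30 wild-type cells the median Spearman rho between Fos and the 46 early genes was 0.08, with 31 above 0, and across the 62 cells labelled knockout it was 0.10, with 30 above 0. Over all genes the median rho was 0.01, with 3686 of 7018 above 0, and -0.01, with 3267 of 7058 above 0. Zfp36 had a rho of 0.67 in the wild-type plate and 0.48 in the other. Egr1 had 0.15 and 0.52, Fosb 0.27 and 0.48, Nfkbid 0.05 and 0.45, and Nr4a1 0.15 and 0.29. Junb had 0.05 and 0.40 and Cd69 0.35 and 0.23. Ppp1r15a had -0.02 and 0.25 and Jun 0.41 and -0.06, so their sign differed between the plates. These are descriptions over cells of a plate, which share their library preparation and differ in depth.

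The plate labelled knockout had the higher share of Fos-positive cells, so the early genes were compared between plates within each state. Over all kept cells the 46 early genes were higher in that plate by a median of 0.93, with 37 of 46 above 0. Within Fos-positive cells the median was 0.54, with 38 of 46 above 0, and within Fos-negative cells it was -0.10, with 19 of 46 above 0. All 7062 genes had medians of -0.04, -0.02 and -0.12 in the same order, with 46.5%, 48.4% and 43.2% of them above 0. Nr4a1 was higher by 1.62 in Fos-positive cells and lower, at -1.07, in Fos-negative cells of the plate labelled knockout, whereas Ppp1r15a stood at 2.79 and 0.30 and Nfkbid at 0.33 and 0.12. Cish stood at 3.08 and 3.02, so its plate difference was about equal in both states. With 1 plate per genotype these values carry no test.

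Transcripts of other cell types were also counted by Fos state. Of 12 myeloid markers, all 12 were detected in Fos-positive wild-type cells and 5 in Fos-negative ones. Their summed level ranged from 0 to 139444 FPKM against 0 to 4330 FPKM, with a median of 0 in both. C1qb, a complement gene of macrophages, was detected in 4 of 30 Fos-positive and 0 of 44 Fos-negative wild-type cells. C1qa, C1qc, Csf1r, Cd68, Itgam and Adgre1 (listed as Emr1) were also at 0 of 44. In the plate labelled knockout 8 and 5 of the 12 markers were detected, with sums of 0 to 46303.5 and 0 to 2830 FPKM and medians of 1.64 and 20.45 FPKM, and C1qa, C1qb, C1qc and Adgre1 were absent from both states. The number of markers seen and the highest sum also grow with the number of cells. Per cell, 2 or more of the markers were held by 8 of 30 Fos-positive and 2 of 44 Fos-negative wild-type cells, and by 6 of 62 and 6 of 16 cells labelled knockout. With Cst3 not counted, any of them was held by 10 of 30 and 7 of 44, and by 11 of 62 and 7 of 16 cells. By these 2 counts, myeloid transcripts were more frequent in Fos-positive cells of the wild-type plate and in Fos-negative cells of the other. Other counts did not all follow. Any of the 12 with Cst3 was held by 12 of 30 and 21 of 44 wild-type cells, and by 32 of 62 and 9 of 16 cells labelled knockout. With Cst3 not counted, 2 or more were held by 5 of 30 and 1 of 44, and by 3 of 62 and 1 of 16 cells. In the plate labelled knockout these last shares were close between the states. The counts leave out level. In the plate labelled knockout, Lyz2 was detected in 4 of 16 Fos-negative cells, with a highest value of 3.14 FPKM. It was detected in 8 of 62 Fos-positive cells, with a highest value of 26410 FPKM. Fcer1g was detected in 1 of 16 and 3 of 62, with highest values of 10.08 and 8116 FPKM. Cd68 was detected in 2 of 16 and 3 of 62, with highest values of 942 and 1438 FPKM. Markers of B cells were seen in 7 of 30 and 12 of 44 wild-type cells and in 7 of 62 and 2 of 16 cells labelled knockout, and NK cell markers in 1, 0, 3 and 0 cells of the same groups. Stromal markers were seen in 9, 11, 14 and 5 cells and CD8 chains in 7, 12, 14 and 4. The part of these transcripts in the results was not tested beyond the values that follow. Without cells that held 2 or more other-cell markers or Cd8a (Tyr and Cst3 not counted), the differences were 3.90 for Nr4a1, 4.17 for Ppp1r15a and 2.70 for Nfkbid. Limma then called 2 genes, Ppp1r15a and Nr4a1, and 6.74% of genes lay at an unadjusted p under 0.05. Without any cell holding 1 of 6 myeloid genes, the same differences were 3.85, 3.96 and 3.39, with 0 genes called by limma and 3.91% of genes at an unadjusted p under 0.05.

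The CD8 plates, which the choice of members did not use, were split the same way into 24 and 48 wild-type cells and 39 and 38 cells labelled knockout. Limma called 1 of 8116 genes higher (0.0123%) and 0 lower (0.0%), with 10.7% of genes higher and 0.493% lower at an unadjusted p under 0.05. The called gene, Hmgn1, a nucleosome-binding protein, is not on an early list. After adjustment for the number of detected genes 0 were called and 7.95% of genes lay at an unadjusted p under 0.05. Fos-positive wild-type CD8 cells held more genes, with a median of 3250 against 2436.5, and the median difference of all genes was 0.31. Of 47 early genes 34 (72.3%) were higher in both CD8 plates, against 47.5% of all genes, with a median of 0.77. The CD8 housekeeping median was 1.01. Nr4a1 had a difference of 2.56 in CD8 cells (1.51 and 3.62 by plate, limma adjusted p = 0.203), Ppp1r15a of 2.23 (adjusted p = 0.316) and Nfkbid of 1.59 (adjusted p = 0.214). Jun had a difference of 1.87, Junb of 1.59 and Cd69 of 2.07, each without passing.

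Whether the Fos difference itself differed between CD4 and CD8 cells was tested with an interaction term over the 4 plates. It called 0 of 8426 genes (0.0%), with a smallest limma adjusted p of 0.624 and 609 genes at an unadjusted p under 0.05. The CD4 minus CD8 value was 1.57 ± 1.13 (SE) for Nr4a1, 1.67 ± 1.10 for Ppp1r15a and 1.56 ± 0.81 for Nfkbid. With 2 residual degrees of freedom and these errors, a difference between the lineages of the size seen was not resolved.

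**Figure D5:**
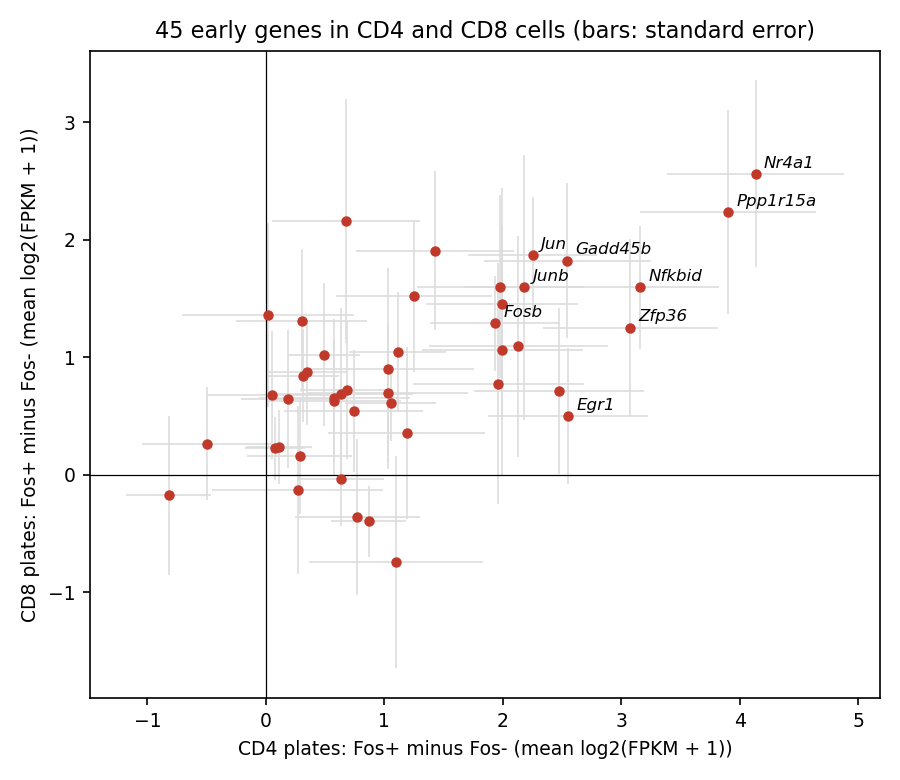
Fos-positive minus Fos-negative difference in mean log2(FPKM + 1) of 45 early genes in the CD4 plates (horizontal axis) and the CD8 plates (vertical axis), with standard errors as bars. Of the 45 genes 38 are above 0 in both lineages, and Nr4a1 lies at 4.13 and 2.56. All 13 housekeeping genes, not drawn, were also above 0 in both, with lowest differences of 0.11 (CD4) and 0.49 (CD8). The median difference of all genes was 0.07 in the CD4 and 0.31 in the CD8 plates, and their share above 0 in both lineages was not computed.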

How the data were processed

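Per the submitters' processing notes, reads were processed with Bowtie and RSEM against mm10, and tool versions are not given in the sources here. The authors deposited FPKM values with TMM normalization, per the labels, for 23420 gene symbols. Reads were not recovered from the FPKM, so detected genes per cell stand for depth and the precision of single values is unknown. RSEM divides reads shared by similar genes, which makes close paralogues uncertain.

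Detection meant 1 FPKM or more, and wells with under 1000 detected genes were left out. Genes detected in at least 10% of the kept cells of either plate were tested, Fos excepted, on mean log2(FPKM + 1) per plate and Fos state, a pseudocount of 1. Limma 3.58.1 in R 4.3.3 (lmFit, eBayes with trend) was fitted with plate as block, and adjusted p under 0.05 (Benjamini-Hochberg) was the threshold. The pairing of the states is by plate, since both come from the same plate. The text names Fos, Junb, Cd69, the called genes (up to 12 a direction, or the widest 6 where none passed) and list members chosen by width of difference, at most 5 a list. Some genes that this rule picks are not reported here. Other genes named, namely Dusp1, Cish, Rgs16, Tnfaip3, Nfkbia, Socs3, Hspa1a and Hmgn1, and the markers of other cells, were added after their values were seen. The members and the 20 gene lists were chosen with earlier results of these data known. Of 240 list symbols 2 were found under an older name and 3 were not matched. Gene coordinates are from GENCODE M21 (GRCm38). Alternatives were 15 planned and 3 added after seeing the data, covering the pseudocount, gene and cell filters, the Fos threshold, depth, cell makeup, averaging, scaling and the model.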

Additional observations from a re-analysis of the deposited data

How the results depend on the processing

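The count of 3 called genes was 0 under 12 of 18 alternatives (limma, Benjamini-Hochberg adjusted p under 0.05). These were a pseudocount of 0.1, cells with 2000 or more genes, adjustment for detected genes, cells paired on detected genes, centring on the median of all genes, removal of Foxp3-positive cells, removal of cells with other-cell markers as planned, arithmetic means, shares of cells, no replicate block, no mean-variance trend, and removal of cells with myeloid markers. At an unadjusted p under 0.05 they gave, in this order, 6.53%, 6.28%, 5.75%, 6.73%, 6.02%, 6.54%, 3.11%, 4.16%, 5.73%, 4.38%, 6.53% and 3.91% of the genes tested. The planned removal of other-cell markers left 6, 8, 16 and 3 cells. It drops cells with 2 or more of the markers, Tyr and Cst3 among them, and cells with Cd8a or Cd8b1. The count was 8 with genes in at least 25% of cells and 6 with genes in at least 1 cell, where fewer or more genes were tested and the prior differed. It stayed at 3, for the same genes, with Fos at 10 FPKM, weighting by cells and rescaling to equal sums, and was 2 without other-cell markers when Tyr and Cst3 were not counted. The CD8 count of 1 became 0 after adjustment for detected genes, with 7.95% at an unadjusted p under 0.05. Over the 18 alternatives the adjusted p of Nr4a1 ranged from 3.76e-05 to 0.999 and its sign never turned. Of the other genes, Junb and Jun passed in 2 of 18 and Cd69 in 0 of 18. Leaving out a plate leaves no test: without the wild-type plate the difference of Nr4a1 was 5.48 and without the other 2.79. Early genes per cell differed by medians of 2.5 to 5.0 (wild type) and 6.0 to 7.0 (labelled knockout). After adjustment for detected genes the early and housekeeping medians were 0.88 and 0.78. Without other-cell markers, Tyr and Cst3 not counted, they were 0.80 and 0.25.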

Other observations

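Tyr, the tyrosinase gene of pigment cells, was at 1 FPKM or more in nearly every kept T cell. It was detected in 74 of 74 wild-type and 77 of 78 CD4 cells labelled knockout, and in 72 of 72 and 75 of 77 CD8 cells. Its medians lay between 7.13 and 8.72 FPKM in the 4 plates, and the population wells held 8.49 to 18.96 FPKM. The no-cell wells held 0. The other melanoma markers were detected in few cells: any of them reached 1 FPKM in 6 of 30 Fos-positive and 10 of 44 Fos-negative wild-type CD4 cells, and in 6 of 62 and 0 of 16 of those labelled knockout. Tyr was not shown to differ with the Fos state, with a difference of -0.31 (limma, Benjamini-Hochberg adjusted p = 0.983).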
